A study of Mus musculus with 23 samples.

Results

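The 10 genes described here encode amino acid carriers of the cell surface, and they were chosen by name: Slc7a5, Slc3a2, Slc7a6, Slc7a1, Slc7a3, Slc1a4, Slc1a5, Slc38a1, Slc38a2 and Slc6a9. They were read from a table of counts for 53379 mouse gene IDs. All 10 were among the 16882 genes with enough reads to be tested. The members, and the lists of related genes used below, were chosen with earlier results of these data known. Their counts set beside shares of all genes are therefore a description. Transcripts were measured in CD4+ T cells from the spleens of C57BL/6 mice, sorted by flow cytometry and kept in culture for 72 h. Every culture held IL-2 at 30 IU/ml. Cells were either left in IL-2 alone (unstimulated) or also given antibodies to CD3 and CD28 (stimulated), which engage the T cell receptor complex and its co-receptor. Each was done without niacin or with 5 mM niacin, and in cells labelled wild type or Gpr109a-/-. Gpr109a, now named Hcar2, encodes a receptor for niacin. This gives 8 groups of 3 libraries each, apart from 2 libraries of unstimulated knockout-labelled cells with niacin.

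Amino acid carriers set how fast a cell can take up the building blocks of protein. The protein of Slc7a5 (LAT1) is a light chain that brings in leucine and other large neutral amino acids, and it reaches the cell surface only when bound to the heavy chain encoded by Slc3a2 (CD98). Leucine that enters this way, and arginine brought in by cationic carriers, are sensed by the kinase complex mTORC1. T cells need such uptake to grow and divide after their receptor is engaged. Other members carry cationic amino acids (Slc7a1 and Slc7a3), exchange cationic for neutral ones (Slc7a6), carry alanine, serine, cysteine and glutamine (Slc1a4 and Slc1a5), move small neutral amino acids with sodium (Slc38a1 and Slc38a2) or carry glycine (Slc6a9).

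The median library held 24007159 counts, the smallest 13205565 and the largest 30090018. Nothing in the labels ties replicates to separate animals, and p-values therefore cover only the spread among libraries. Hcar2 itself went against the genotype labels. It had 0 or 1 count in each of the 12 wild-type-labelled libraries and 0 to 32 counts in the 11 knockout-labelled ones, so groups are called by their labels throughout and any direction by genotype is a direction between labels. Unstimulated knockout-labelled library 3 stood apart, with the lowest total and the lowest scaling factor (0.885). It was also the only library whose column header lacked the tag jax, and the meaning of that tag was not given. Its counts differed from those of libraries 1 and 2 of its group by a chi-square per degree of freedom of 215 and 202. Between libraries 1 and 2 that value was 22.9. In the stimulated, niacin-treated, wild-type-labelled group, mitochondrial genes took 0.187% and 0.216% of the counts of libraries 1 and 2 but 0.605% of those of library 3. The defining markers of CD4 T cells were present in every library, with a summed level of 2480 to 4128 CPM (counts scaled to a common library total).

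Markers of other cells differed in level. The 2 CD8 T cell markers summed to between 7.88 and 29.2 CPM, with a median of 18.5 CPM for Cd8b1 and 0.856 CPM for Cd8a. The 12 myeloid and dendritic markers summed to between 0.804 and 11.5 CPM, and the 7 erythroid and platelet markers to between 0 and 5.82 CPM. The 8 B cell markers summed to between 416 and 1109 CPM, nearly all of it Ighm (408 to 1103 CPM), while Pax5 stayed at or under 0.0825 CPM. The 6 NK cell markers summed to between 29.1 and 45.8 CPM in unstimulated libraries and to between 73.9 and 109 CPM in stimulated ones. Of these, Eomes ran from 3.54 to 108 CPM over all libraries, highest in a stimulated one, and Klra8 was at 0 in every one. Klrd1 (38.1 CPM), Klrb1c (13.6 CPM) and Ncr1 (5.68 CPM) had their highest values in unstimulated wild-type-labelled libraries instead. The higher sum in stimulated libraries therefore does not describe each NK cell marker. The part of these markers in the results was not tested.

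Stretches of DNA just before the RefSeq starts of 4 members are shown to let members that rose on stimulation (Slc7a1 and Slc1a4) be read beside members that did not (Slc7a6 and Slc38a2). They are the 60 bases before the start on the gene's own strand in GRCm38.p6, with CG dinucleotides in capitals. The positions are chr5:148399905-148399964, minus strand, for Slc7a1, chr11:20332714-20332773, minus strand, for Slc1a4, chr8:106168794-106168853, plus strand, for Slc7a6, and chr15:96699729-96699788, minus strand, for Slc38a2.
Slc7a1: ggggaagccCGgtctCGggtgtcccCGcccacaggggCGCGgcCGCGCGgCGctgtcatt
Slc1a4: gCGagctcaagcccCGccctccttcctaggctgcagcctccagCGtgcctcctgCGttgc
Slc7a6: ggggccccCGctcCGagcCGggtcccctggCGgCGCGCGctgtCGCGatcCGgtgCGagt
Slc38a2: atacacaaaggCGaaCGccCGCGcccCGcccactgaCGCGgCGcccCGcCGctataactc
These hold 9, 4, 11 and 10 CG dinucleotides in that order. Slc3a2 and Slc6a9, which also rose, are not shown, so the counts do not describe the members that rose as a set.

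RefSeq promoter windows of 300 bases, reaching from 250 before the start to 50 after it, were at hand for 6 of the 10 members (10 windows). Their GC content was 75.7% and 76.7% for the windows of Slc7a6 and 73% for Slc38a2. It was 65% and 51.7% for Slc7a1, 65% for Slc1a4, 56% for Slc3a2 and 59% to 60.7% for Slc6a9. The median over all 32851 windows was 52.7%, with quartiles of 45.7% and 61.7%. The core TGATGNAA, known from genes bound by ATF4 with a C/EBP partner, was searched on both strands. It was found in 1 of the members' 10 windows, that of Slc1a4, and in 3.97% of all windows. The 30 bases around it at chr11:20332710-20332739 on the minus strand, where the gene lies, are given with the match in capitals, read here as its reverse complement.
Slc1a4: agcctccagcgtgcctcctgcgTTGCATCA
The match runs across the start, from 4 bases before it to 4 bases after it. The E-box CACGTG, the letters that MYC with MAX is known to bind, was also searched on both strands, could share at most 2 letters with that core, and was in none of the members' windows and in 7.15% of all windows. A match is a description of letters, and a window without one says nothing about binding.

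Stimulation was the condition that moved these transcripts. In wild-type-labelled cells without niacin, 6 of the 10 members rose and 1 fell by edgeR's quasi-likelihood test at an adjusted p under 0.05. Of all genes tested, 23.4% rose and 21.7% fell. The median log2 fold change was 1.35 over the members and -0.07 over all genes. The libraries of the 2 groups did not overlap for 8 of the members, against 60.9% of all genes. Slc7a5, Slc3a2, Slc7a1, Slc7a3, Slc1a4 and Slc6a9 rose and Slc38a2 fell. These are counts of transcripts in bulk cultures, where fewer cells of a type and less RNA per cell cannot be told apart.

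The same 6 members rose in each of the other backgrounds. With niacin in the wild-type label, 6 rose and 1 fell, against 26% and 26.6% of all genes, and the members' median log2 fold change was 1.65 (-0.10 over all genes). In knockout-labelled cells without niacin, 6 rose and none fell, against 25.2% and 27.5% of all genes, with medians of 1.38 and -0.13. In knockout-labelled cells with niacin, 7 rose and none fell, against 24.5% and 25.3% of all genes, with medians of 1.71 and -0.07. The groups did not overlap for 8, 8 and 9 members in these 3 comparisons, against 63%, 54.8% and 74.8% of all genes.

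**Figure D1:**
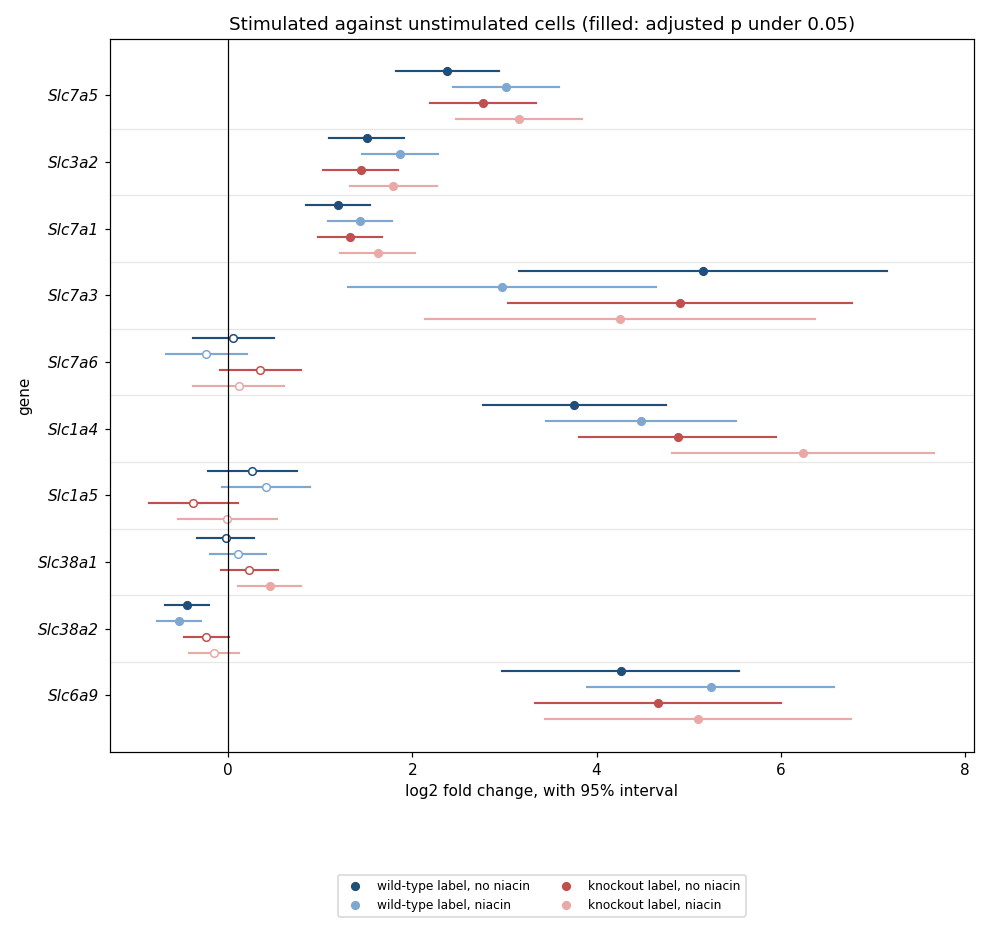
Log2 fold change of stimulated against unstimulated cells for each of the 10 carriers (y axis) with its 95% interval, in the 4 backgrounds of label and niacin. Filled points passed an adjusted p of 0.05: Slc7a5, Slc3a2, Slc7a1, Slc7a3, Slc1a4 and Slc6a9 lie to the right of 0 in all 4, while Slc7a6 and Slc1a5 have open points only.

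Slc7a5 (chromosome 8, 121881150 to 121907694, minus strand, mm10) carries leucine and other large neutral amino acids. In unstimulated cells it measured 133, 87.7 and 65.8 CPM in the wild-type-labelled libraries, 107, 62.8 and 55.2 CPM in those with niacin, 92.2, 76.8 and 146 CPM in the knockout-labelled libraries, and 71.9 and 76.7 CPM in those with niacin. In stimulated cells it measured 438, 498 and 555 CPM, 621, 691 and 511 CPM, 666, 703 and 769 CPM, and 640.1, 611 and 737 CPM in the same order of groups. Every stimulated library was above every unstimulated one, and the gap lay between 146 and 438 CPM. The log2 fold change on stimulation was 2.38 ± 0.26 (SE) under the wild-type label without niacin (edgeR, adjusted p = 4.76e-07) and 3.02 ± 0.27 with niacin (adjusted p = 2.1e-08). In knockout-labelled cells it was 2.77 ± 0.27 (edgeR, adjusted p = 6.77e-08) and 3.16 ± 0.32 with niacin (adjusted p = 2.01e-07). Per kb of transcript, Slc7a5 moved from above 86.2% of tested genes in unstimulated wild-type-labelled cells to above 97.5% of them after stimulation.

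Slc3a2 (chromosome 19, 8706882 to 8723369, minus strand), the heavy chain shared by Slc7a5 and Slc7a6, also rose in every background. Unstimulated libraries held 157, 132 and 114 CPM (wild-type-labelled), 137, 111 and 109 CPM (wild-type-labelled with niacin), 139, 122 and 240.02 CPM (knockout-labelled) and 106 and 122 CPM (knockout-labelled with niacin). Stimulated libraries held 375, 368 and 404 CPM, 461, 468 and 376 CPM, 428, 446 and 484 CPM, and 405, 376 and 407 CPM in that order. The ranges did not meet, and the highest unstimulated value was that of knockout-labelled library 3. The 4 log2 fold changes were 1.51 ± 0.19, 1.87 ± 0.19, 1.44 ± 0.19 and 1.80 ± 0.22 (SE), with the largest of the 4 edgeR adjusted p-values at 3.32e-06.

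The light chain rose by more than its partner. The ratio of Slc7a5 to Slc3a2, each per kb of transcript, was 0.661 ± 0.13 (SD, n = 3) in unstimulated wild-type-labelled cells and 1.24 ± 0.107 (SD, n = 3) after stimulation. It was 0.603 ± 0.0257 (SD, n = 3) and 1.5 ± 0.0152 (SD, n = 3) in knockout-labelled cells. Over all 11 unstimulated libraries the ratio ran from 0.482 to 0.803, and over all 12 stimulated ones from 1.11 to 1.725. The level per kb of the light chain thus passed that of the heavy chain in every stimulated library. Where the ratio crosses 1 depends on the annotated exon lengths used for the scaling. Among stimulated cells without niacin the knockout-labelled libraries (1.48 to 1.51) lay above the wild-type-labelled ones (1.11 to 1.31). With niacin they did so again (1.51 to 1.725 against 1.28 to 1.4), as a description with no test.

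**Figure D2:**
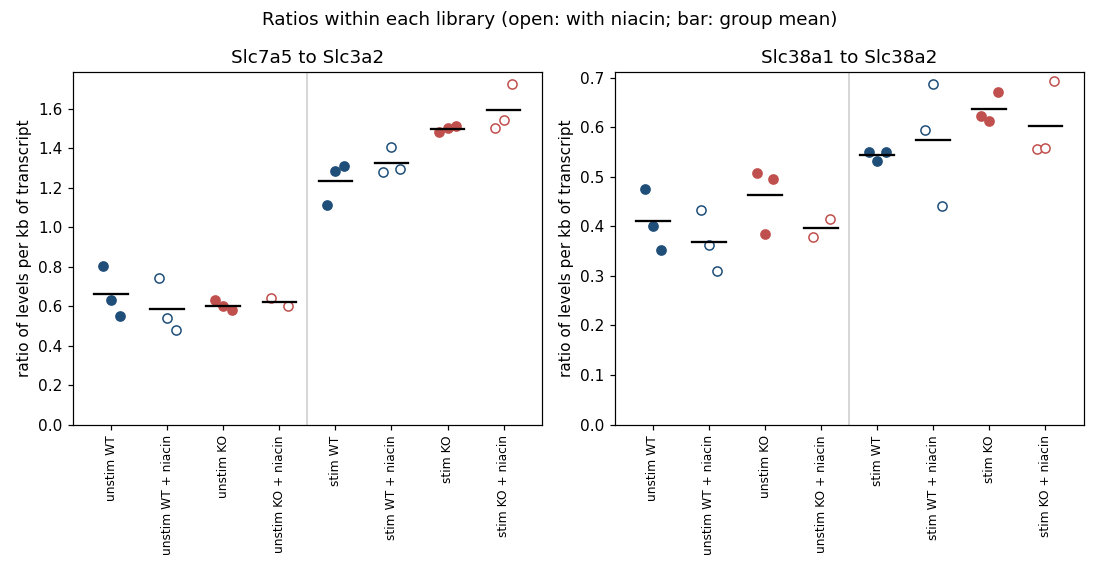
Ratios of 2 carriers' levels per kb of transcript in each library (points, open with niacin) and the group mean (bar), for Slc7a5 to Slc3a2 on the left and Slc38a1 to Slc38a2 on the right. All stimulated libraries lie above 1 and all unstimulated ones below 1 in the left panel, and group means rise from 0.368 to 0.463 up to 0.544 to 0.636 in the right panel.

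Slc7a6 (chromosome 8, 106168857 to 106198706, plus strand) encodes the other light chain among the members that pairs with CD98, and it did not pass the test in any stimulation comparison. Its group means lay between 27.1 CPM, in unstimulated knockout-labelled cells, and 38.4 CPM, in unstimulated wild-type-labelled cells with niacin. The lowest single value, 16.8 CPM, came from unstimulated knockout-labelled library 3, and the other 22 libraries held 27.6 to 41.6 CPM. On stimulation the fold was 1.04 (95% interval 0.769 to 1.41) in wild-type-labelled cells and 1.28 (0.941 to 1.73) in knockout-labelled cells. With unstimulated knockout-labelled library 2 left out, the second comparison gave a log2 fold change of 0.64 (edgeR, adjusted p = 0.0148). Without library 3 of that group it gave 0.11 (edgeR, adjusted p = 0.602).

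Both cationic amino acid carriers rose. Slc7a1 (chromosome 5, 148327410 to 148399904, minus strand), the main arginine and lysine carrier of many cell types, measured 52.7, 37.8 and 37.4 CPM in unstimulated wild-type-labelled libraries and 88.7, 89.1 and 113.9 CPM in stimulated ones. In knockout-labelled libraries it measured 45.3, 40.6 and 47.5 CPM unstimulated and 105, 111 and 118 CPM stimulated. With niacin, unstimulated libraries held 32.5 to 47.7 CPM and stimulated ones 99.2 to 121 CPM. No stimulated library fell within the unstimulated range. The log2 fold changes in the 4 backgrounds were 1.19 ± 0.16, 1.44 ± 0.16, 1.33 ± 0.16 and 1.63 ± 0.19 (SE), the smallest of the 6 rises, and the largest of their edgeR adjusted p-values was 6.55e-06.

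Slc7a3 (chromosome X, 101079210 to 101086020, minus strand), a carrier of the same class that is best known from brain, went from almost no reads to a low level. It measured 0, 0.189 and 0.424 CPM in unstimulated wild-type-labelled libraries and 5.81, 6.44 and 10.02 CPM in stimulated ones. In knockout-labelled libraries it measured 0, 1.17 and 0 CPM unstimulated and 9.04, 16.4 and 14.1 CPM stimulated. With niacin it measured 0.206, 1.38 and 1.09 CPM (wild-type-labelled) and 0.213 and 0.927 CPM (knockout-labelled) unstimulated, against 7.20, 8.32 and 5.76 CPM and 10.7, 10.9 and 11.6 CPM stimulated. The lowest stimulated library held 5.76 CPM and the highest unstimulated one 1.38 CPM. Because the unstimulated level was near 0, the size of the rise is loosely fixed: the log2 fold change was 5.15 ± 0.94, 2.97 ± 0.78, 4.90 ± 0.88 and 4.25 ± 0.99 (SE), with edgeR adjusted p-values of 0.000156, 0.00352, 0.000103 and 0.00149. With unstimulated knockout-labelled library 2 left out, the only one of that group with a read, the fitted value rose to 11.3, which then depends on the model's prior count. With other single unstimulated libraries left out it ran from 4.56 (library 1) to 6.29 (library 3) in the wild-type label, was 4.25 without knockout-labelled library 1, and was 3.57 and 5.66 without libraries 2 and 3 of the knockout-labelled cells with niacin. With libraries 1 and 2 of its stimulated group left out, the rise with niacin in the wild-type label was 2.64 and missed the threshold (edgeR, adjusted p = 0.0587).

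**Figure D3:**
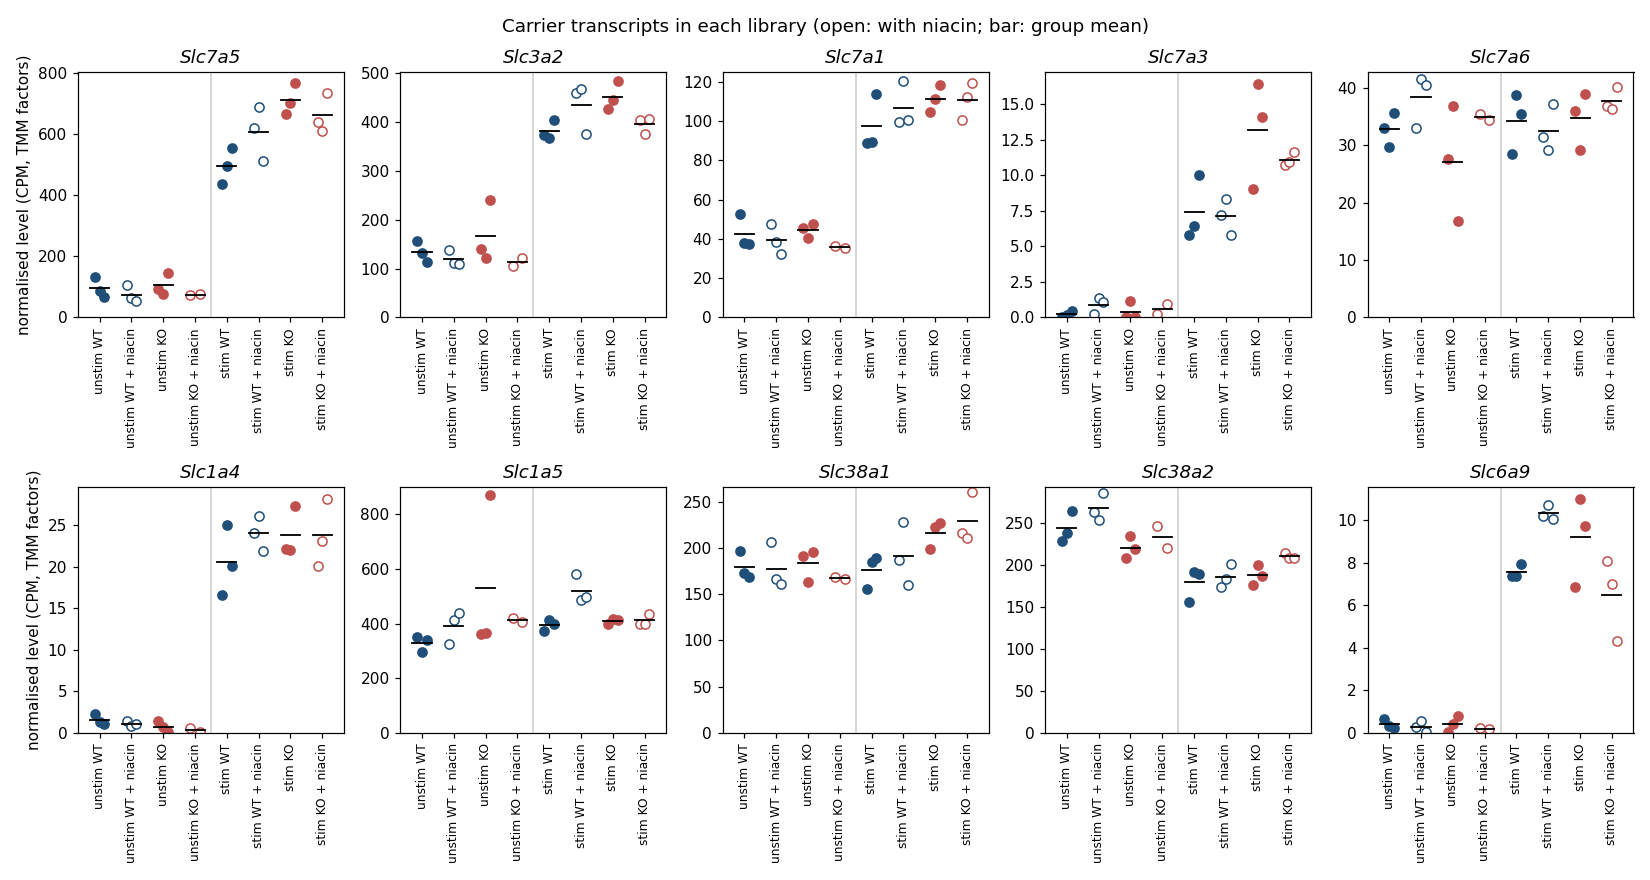
Normalised level (CPM with TMM factors, y axis from 0) of each carrier in each of the 23 libraries, by group, with open points for niacin and a bar at the group mean (unstim, IL-2 alone; stim, with anti-CD3 and anti-CD28; WT and KO, the labels). Slc7a5, Slc3a2, Slc7a1, Slc7a3, Slc1a4 and Slc6a9 have no stimulated library within the unstimulated range, and Slc1a5 has 1 unstimulated knockout-labelled library at 871 CPM.

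The 2 members of the Slc1 family differed. Slc1a4 (ASCT1, chromosome 11, 20302180 to 20332713, minus strand), which carries serine, alanine and cysteine, rose in each background. It measured 2.24, 1.28 and 1.02 CPM in unstimulated wild-type-labelled libraries and 16.5, 25 and 20.04 CPM in stimulated ones. In knockout-labelled libraries it measured 1.4, 0.662 and 0.0856 CPM unstimulated and 22.2, 22 and 27.2 CPM stimulated. With niacin, the unstimulated values were 1.36, 0.769 and 1.09 CPM (wild-type-labelled) and 0.597 and 0.0386 CPM (knockout-labelled), and the stimulated values were 24.1, 26.2 and 21.9 CPM and 20.04, 23.1 and 28.2 CPM. All stimulated libraries were at 16.5 CPM or more and all unstimulated ones at 2.24 CPM or less. The log2 fold changes were 3.76 ± 0.47, 4.48 ± 0.48, 4.88 ± 0.50 and 6.24 ± 0.67 (SE), with edgeR adjusted p-values of 1.93e-06, 2.49e-07, 1.59e-07 and 3.6e-07. The last of these rests on 2 unstimulated libraries, 1 of which held 1 read: without library 2 the value was 9.08 and without library 3 it was 5.30. Without library 1 of the unstimulated knockout-labelled group the value for cells not given niacin was 5.71. Slc1a4 is the member whose promoter window held the match to the core printed above.

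Slc1a5 (ASCT2, chromosome 7, 16781340 to 16798274, plus strand), an exchanger of glutamine and other neutral amino acids, was already abundant in unstimulated cells. Per kb of transcript it stood above 96.6% of tested genes in unstimulated wild-type-labelled cells and above 96% of them after stimulation. Unstimulated libraries held 352, 295 and 339.6 CPM (wild-type-labelled), 323.5, 412 and 439.6 CPM (with niacin), 360.02, 365 and 871 CPM (knockout-labelled) and 420.03 and 407 CPM (knockout-labelled with niacin). Stimulated libraries held 372, 413 and 399.96 CPM, 580.5, 487 and 496 CPM, 398 to 418 CPM, and 399.4 to 435 CPM in that order. The value of 871 CPM was that of knockout-labelled library 3, which also had the lowest summed CD4 T cell (2480 CPM) and B cell (416 CPM) markers; their part in it was not tested. Stimulation gave folds of 1.2 (95% interval 0.862 to 1.68), 1.33 (0.953 to 1.85), 0.770 (0.552 to 1.07) and 0.995 (0.686 to 1.44), none of which passed the test.

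That 1 library weighed on what could be said of Slc1a5. With it left out of the fit, Slc1a5 rose on stimulation in wild-type-labelled cells by 0.26 without niacin (log2, edgeR adjusted p = 0.0405) and by 0.41 with niacin (adjusted p = 0.00239). Neither comparison contains the library, which adds to the shared estimate of the spread. Fits of only the compared groups also lack library 3. There the rise with niacin passed (log2 0.42, edgeR adjusted p = 0.0469) and the rise without niacin did not. The calls in wild-type-labelled cells thus also depended on which other groups shared the fit. In knockout-labelled cells without niacin the value went from -0.38 with all libraries to 0.18 without library 3 (edgeR, adjusted p = 0.212). Without library 1 or library 2 of that group instead, so that library 3 weighs more, it was -0.59 (edgeR, adjusted p = 0.0304 and 0.0352). The sign of the stimulation difference in knockout-labelled cells therefore turned on library 3.

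The 2 members of the Slc38 family, neighbours on chromosome 15, moved little. Slc38a2 (SNAT2, 96687394 to 96699698, minus strand), a carrier of alanine, glutamine and other small neutral amino acids that is known to be induced when amino acids are scarce, was the only member that fell. It measured 228, 238 and 264 CPM in unstimulated wild-type-labelled libraries and 156, 192 and 189.6 CPM in stimulated ones, and 263, 253 and 286 CPM against 174, 183 and 200.4 CPM with niacin. In knockout-labelled libraries it measured 208, 234 and 219 CPM unstimulated and 176, 200.4 and 187 CPM stimulated, and 246 and 221 CPM against 214, 208 and 208 CPM with niacin. No stimulated library reached its own unstimulated group in any background. The log2 fold change was -0.44 ± 0.11 under the wild-type label (edgeR, adjusted p = 0.00323) and -0.53 ± 0.11 with niacin (adjusted p = 0.000601). In knockout-labelled cells it was -0.23 ± 0.11 (edgeR, adjusted p = 0.0874) and -0.15 ± 0.13 with niacin (adjusted p = 0.323). With the scaling factors of the RLE method, the first of these passed (log2 -0.32, edgeR adjusted p = 0.0238). Without a filter on low counts the wild-type-labelled fall missed the threshold (log2 -0.45, edgeR adjusted p = 0.0504).

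Slc38a1 (SNAT1, 96571418 to 96642913, minus strand), which takes up glutamine with sodium, had group means of 168 to 184 CPM unstimulated and 177 to 229 CPM stimulated. It passed the test only in knockout-labelled cells with niacin, at 169 and 166 CPM unstimulated and 216, 211 and 261 CPM stimulated (log2 0.45 ± 0.16, edgeR adjusted p = 0.0262). Leaving out library 3 of the stimulated cells, or either unstimulated library, of that comparison gave log2 values of 0.35 to 0.46 that missed the threshold (edgeR, adjusted p = 0.106 to 0.119), as did RLE factors (log2 0.37, adjusted p = 0.0579) and no filter (log2 0.38, adjusted p = 0.17). In the other 3 backgrounds the fold was 0.983 (95% interval 0.795 to 1.21), 1.08 (0.873 to 1.33) and 1.18 (0.951 to 1.45).

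Slc6a9 (GLYT1, chromosome 4, 117834506 to 117875198, plus strand), a sodium- and chloride-coupled glycine carrier, was close to 0 before stimulation. It measured 0.622, 0.331 and 0.212 CPM in unstimulated wild-type-labelled libraries and 7.38, 7.39 and 7.95 CPM in stimulated ones. In knockout-labelled libraries it measured 0.0359, 0.429 and 0.77 CPM unstimulated and 6.86, 11 and 9.73 CPM stimulated. With niacin the unstimulated libraries held 0.0342 to 0.538 CPM, the stimulated wild-type-labelled ones 10.05 to 10.7 CPM and the stimulated knockout-labelled ones 4.31 to 8.09 CPM. The 2 ranges were far apart, with 0.77 CPM the highest unstimulated value and 4.31 CPM the lowest stimulated one. The log2 fold changes were 4.26 ± 0.60, 5.24 ± 0.63, 4.66 ± 0.63 and 5.10 ± 0.78 (SE), with the largest edgeR adjusted p at 2.46e-05. Single unstimulated libraries moved these sizes, to 6.21 without wild-type-labelled niacin library 2, and to 4.01 and 5.31 without knockout-labelled libraries 1 and 3. Genes on the opposite strand overlap Slc6a9, and reads there may be shared if the counting ignored strand: B4galt2 had at most 41 counts in a library, Ccdc24 at most 2 and Gm17114 none. Gm20388, which overlaps Slc7a5 from the opposite strand, had none either.

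Set side by side per kb of transcript, the make-up of the 10 members changed with stimulation. In unstimulated wild-type-labelled cells Slc1a5 made up 34.6% of their summed level, Slc38a2 23.2%, Slc3a2 16.7%, Slc7a5 11.1% and Slc38a1 9.40%. After stimulation Slc7a5 led with 31.8%, before Slc3a2 at 25.8%, Slc1a5 at 22.5% and Slc38a2 at 9.18%. In knockout-labelled cells Slc1a5 held 43.2% and Slc7a5 10.02% before stimulation, and Slc7a5 37.4% and Slc1a5 19.1% after it. Slc7a3, Slc1a4 and Slc6a9, the 3 members near 0 before stimulation, held little of the sum: the largest share of any of the 3 in any group was 1.24%, for Slc1a4 in stimulated wild-type-labelled cells.

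Niacin moved no member past the threshold. In each of the 4 backgrounds 0 of the 10 members passed by edgeR and 0 by DESeq2. The share of all genes that passed by edgeR was 0% in both wild-type-labelled comparisons and in unstimulated knockout-labelled cells, and 0.00592% (1 gene) in stimulated knockout-labelled cells. At an unadjusted p under 0.05 there was 1 member in unstimulated wild-type-labelled cells (Slc7a3) and 1 in unstimulated knockout-labelled cells (Slc3a2), against 457 and 1343 of the 16882 genes. In the stimulated comparisons there was none, against 1682 and 882 genes. Slc7a3 was at 0.204 ± 0.212 CPM (SD, n = 3) without niacin and 0.894 ± 0.613 CPM (SD, n = 3) with it, and the libraries overlapped. Its log2 difference of 2.12 became 1.52 and 3.26 without wild-type-labelled libraries 1 and 3 (edgeR, adjusted p = 1 in each). Slc3a2 was at 167 ± 63.7 CPM (SD, n = 3) without niacin and 114 ± 11.0 CPM (SD, n = 2) with it, where the first mean holds library 3 at 240.02 CPM. The niacin groups did not overlap for 0 and 2 members in unstimulated and stimulated wild-type-labelled cells (9.66% and 14.2% of all genes) and for 3 and 2 in knockout-labelled cells (16.6% and 13.8%).

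Averaged over the 4 backgrounds, the fold with niacin was 0.892 (95% interval 0.736 to 1.08) for Slc7a5, 0.881 (0.764 to 1.02) for Slc3a2 and 0.95 (0.840 to 1.07) for Slc7a1. For Slc1a5 it was 1.05 (0.887 to 1.25), for Slc38a1 1.01 (0.905 to 1.13), for Slc38a2 1.08 (0.989 to 1.17) and for Slc7a6 1.12 (0.954 to 1.30). The 3 low-level members were less well fixed, at 1.46 (0.781 to 2.75) for Slc7a3, 0.753 (0.519 to 1.09) for Slc1a4 and 0.766 (0.477 to 1.23) for Slc6a9. For 2 of them single libraries moved the average beyond these intervals: Slc7a3 went from 0.55 to 2.15 on the log2 scale without unstimulated knockout-labelled library 2, and Slc1a4 from -0.41 to -1.12 without niacin-treated unstimulated knockout-labelled library 2 (edgeR, adjusted p = 0.172 and 0.6). No member passed by edgeR in this average or had an unadjusted p under 0.05, and 0.154% of all genes passed. DESeq2 gave 0 members as well.

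The genotype label likewise moved no member past the threshold by edgeR or DESeq2. The share of all genes that passed by edgeR was 0.0415% in unstimulated cells, 0.113% in stimulated cells, 0.0355% in unstimulated cells with niacin and 1.44% in stimulated cells with niacin. At an unadjusted p under 0.05 there was 1 member in unstimulated cells (Slc1a5), 1 in unstimulated cells with niacin (Slc1a4) and none in either comparison of stimulated cells. Of all 16882 genes, 1760 and 166 reached it in the first 2 comparisons and 1426 and 3273 in stimulated cells without and with niacin. For Slc1a5 the knockout-labelled libraries (360.02, 365 and 871 CPM) lay above the wild-type-labelled ones (352, 295 and 339.6 CPM), at a log2 difference of 0.69 ± 0.23 (edgeR, adjusted p = 0.409). Without library 3 it was 0.14 (edgeR, adjusted p = 1). For Slc1a4 the difference with niacin was -1.78 ± 0.66 (edgeR, adjusted p = 1) between levels of at most 1.36 CPM. It was -4.62 without knockout-labelled library 2, which leaves a library with 1 read, and -0.84 without library 3 (edgeR, adjusted p = 0.861 and 1).

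Among stimulated cells Slc7a5 did not overlap between the labels, though it did not pass. Its stimulated knockout-labelled libraries (666 to 769 CPM) were above all 3 wild-type-labelled ones (438 to 555 CPM), at a log2 difference of 0.52 (edgeR, adjusted p = 0.6). Slc3a2 and Slc38a1 also did not overlap there, and 3 such members of 10 compare with 20.5% of all genes. In stimulated cells with niacin, 4 members did not overlap (26.5% of all genes), and in unstimulated cells without and with niacin 1 and 2 did not (7.43% and 15.3%). Averaged over the 4 conditions, the fold of knockout-labelled over wild-type-labelled cells was 1.14 (95% interval 0.943 to 1.38) for Slc7a5 and 1.06 (0.923 to 1.23) for Slc3a2. No member passed in that average, where 0.326% of all genes did, and Slc1a4 had an unadjusted p under 0.05 (log2 -0.62 ± 0.25, edgeR adjusted p = 0.394), as did 1666 of all genes. Without library 2 of the knockout-labelled unstimulated cells with niacin it was -1.33 (edgeR, adjusted p = 0.134).

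**Figure D4:**
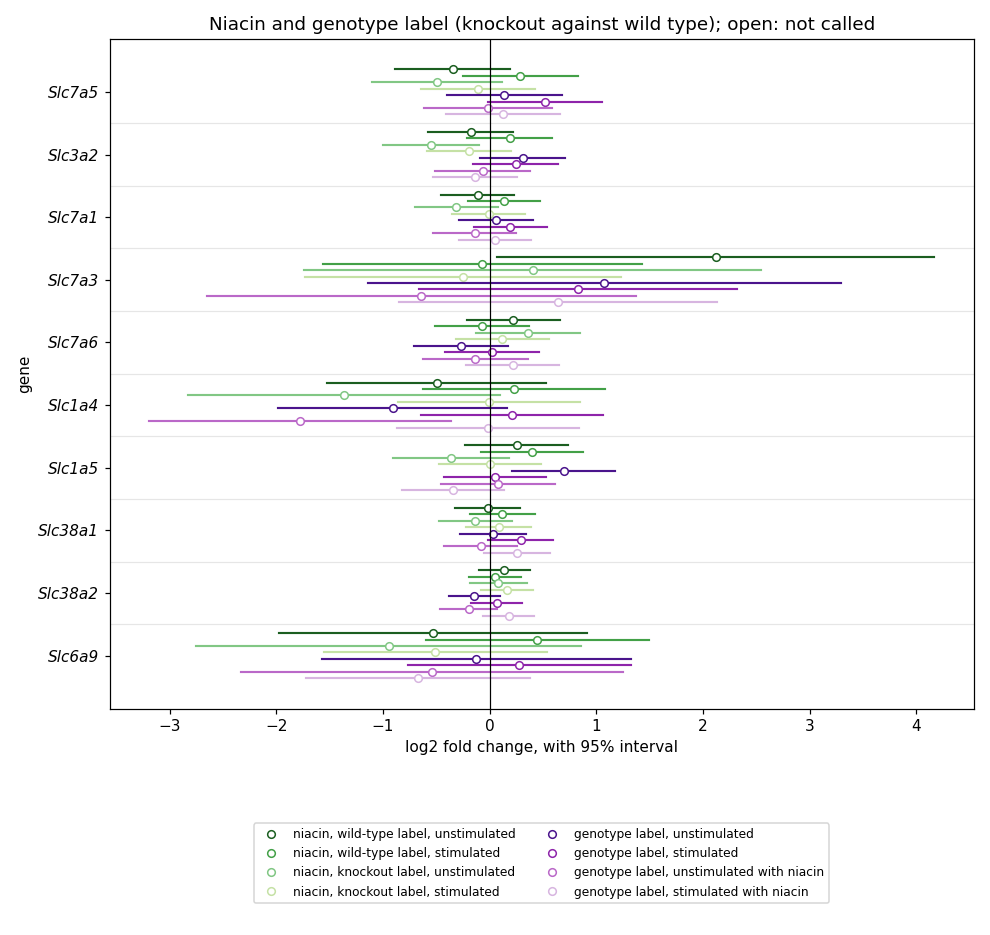
Log2 fold change with its 95% interval for each carrier in the 4 niacin comparisons (green) and the 4 comparisons of knockout-labelled with wild-type-labelled cells (purple). All points are open, since none passed an adjusted p of 0.05, and the widest intervals are those of Slc7a3, Slc1a4 and Slc6a9.

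Whether one condition changed the effect of another was tested directly in 5 terms. These were niacin by stimulation within each label, niacin by label within each state of stimulation, and stimulation by label without niacin. By edgeR 0 members passed in any of them, 0 had an unadjusted p under 0.05, and DESeq2 also gave 0. Of all genes, 0% passed in 3 of the terms and 0.00592% in niacin by label in unstimulated cells and in stimulation by label. The term closest to the threshold for a member was stimulation by label for Slc1a5 (log2 -0.64 ± 0.32, edgeR adjusted p = 0.482), which became -0.09 with unstimulated knockout-labelled library 3 left out (edgeR, adjusted p = 0.935). A larger stimulation effect on Slc7a5 with niacin than without it in wild-type-labelled cells had a log2 difference of 0.64 ± 0.36 (edgeR, adjusted p = 0.672).

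Genes around these carriers were counted from lists, described here by their counts and with no test of a list. The shares of all genes to set beside the counts without niacin are 23.4% up and 21.7% down under the wild-type label, and 25.2% up and 27.5% down under the knockout label. Of 35 other amino acid carriers of the plasma membrane, 15 were tested, 12 were below the filter and 8 had no count. On stimulation without niacin 2 rose and 2 fell under the wild-type label, against 4 and 4 under the knockout label, shares under or near the background. Slc6a19, a carrier of neutral amino acids best known from kidney and gut, fell from 9.75 ± 1.58 to 2.41 ± 1.15 CPM (SD, n = 3) in wild-type-labelled cells (log2 -2.02, edgeR adjusted p = 0.0194). Of 11 tested lysosomal and vesicular carriers, 2 rose and 0 fell under the wild-type label, against 1 and 1 under the knockout label. With niacin, 2 rose and 3 fell under the wild-type label (26% and 26.6% of all genes). Under the knockout label with niacin 2 rose and 4 fell (24.5% and 25.3%). No gene of this list passed in niacin by stimulation under either label, so these counts show no change of the stimulation response with niacin. The genes named next are from wild-type-labelled cells without niacin. Slc15a4, a lysosomal carrier of histidine and small peptides, rose from 29.3 to 52.8 CPM (log2 0.85, edgeR adjusted p = 0.0373).

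Of 11 mitochondrial carriers tested, 3 rose and 5 fell under the wild-type label without niacin (23.4% and 21.7% of all genes), against 4 and 4 under the knockout label (25.2% and 27.5%). The numbers that rose were near the background. With niacin, 4 rose and 3 fell under the wild-type label (26% and 26.6% of all genes), against 4 and 4 under the knockout label (24.5% and 25.3%). The values that follow are without niacin. Sfxn1, which carries serine into mitochondria, rose from 75.8 ± 19.8 to 195 ± 15.4 CPM (SD, n = 3) in wild-type-labelled cells (log2 1.36, edgeR adjusted p = 2.18e-05), and Slc25a13, an aspartate and glutamate carrier, rose from 6.41 to 15.6 CPM (adjusted p = 0.0011). Slc25a29, a carrier of basic amino acids, fell from 19 to 4.44 CPM (log2 -2.09, edgeR adjusted p = 8.98e-05). Slc25a38, which carries glycine, fell from 42.6 to 14.9 CPM (log2 -1.52, edgeR adjusted p = 1.34e-06), and Sfxn3 from 94.1 to 38 CPM (adjusted p = 4.95e-06).

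Of 18 enzymes of glutamine, branched-chain and arginine use, 13 rose and 2 fell under the wild-type label without niacin (23.4% and 21.7% of all genes), against 11 and 2 under the knockout label (25.2% and 27.5%). Asns, which makes asparagine from aspartate and glutamine, rose from 2.76 ± 1.15 to 134.5 ± 18 CPM (SD, n = 3) in wild-type-labelled cells (log2 5.60, edgeR adjusted p = 1.95e-09). Gpt2, an alanine transaminase, rose from 1.70 to 44.7 CPM, Bcat1, the cytosolic branched-chain transaminase, from 2.93 to 58.9 CPM, and Pycr1, the last step of proline synthesis, from 1.64 to 31.6 CPM, each with an edgeR adjusted p of 6.35e-07 or less.

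Transcription factors known for these carriers were measured too. Of 7, 5 rose and 1 fell under the wild-type label without niacin (23.4% and 21.7% of all genes), against 4 and 1 under the knockout label (25.2% and 27.5%). Atf4, which drives amino acid response genes, rose from 85.7 ± 17.9 to 353 ± 28.7 CPM (SD, n = 3) in wild-type-labelled cells (log2 2.04, edgeR adjusted p = 2.65e-10), and in the knockout label from 90.1 to 383 CPM (adjusted p = 1.95e-10). Ddit3, a factor induced in the same response, went up to 71.6 CPM (from 16.8) and to 53.5 CPM (from 18.04) in those comparisons (edgeR, adjusted p = 3.66e-09 and 1.6e-07). Myc, a factor of T cell growth, went from 213 to 637 CPM (edgeR, adjusted p = 6.17e-06) and from 287 to 673 CPM (adjusted p = 7.36e-05). Nfatc1 fell from 369 to 218 CPM (edgeR, adjusted p = 0.0014) and from 463 to 229 CPM (adjusted p = 7.01e-05). With niacin, 5 of the 7 factors rose and 0 fell under the wild-type label (26% and 26.6% of all genes), so the fall of Nfatc1 was not called there. Under the knockout label with niacin 6 rose and 1 fell (24.5% and 25.3%). In stimulated cells with niacin, Ddit3 was lower in knockout-labelled cells, at 38.1 ± 3.87 against 77.5 ± 9.59 CPM (SD, n = 3, log2 -1.02, edgeR adjusted p = 0.00317). It was the only edgeR call in these lists outside the stimulation comparisons, and 1.44% of all genes passed in that comparison. Its wild-type-labelled group holds the libraries 1 and 2 with the low share of mitochondrial counts. The call for Ddit3 was not recomputed without them.

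The genes whose levels across all 23 libraries were most like a member's are given by Pearson's r of log2 CPM, as a description. All points share the contrast of stimulated with unstimulated libraries. For Slc7a5 they were Ruvbl2 (r = 0.996), Tkt (0.995) and Shmt2 (0.994), for Slc3a2 Agpat3 (0.995), Ruvbl2 (0.993) and Gm6560 (0.992), and for Slc7a1 Slc7a5 (0.992) and Phgdh (0.991). Slc1a4 was most like Gm7488 (0.972) and Plekha2 (0.971), Slc6a9 most like Myl4 (0.978), Nkiras2 (0.978) and Lamc1 (0.976), and Slc7a3 most like Ticam2 (0.957), Gm33460 (0.940) and Nmnat1 (0.939). The members that changed less had weaker matches: Mrpl24 (0.876) for Slc7a6, Hmg20b (0.942) for Slc1a5, Gps1 (0.910) for Slc38a1 and Prkcq (0.906) for Slc38a2.

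Among the members, Slc7a5 and Slc3a2 had an r of 0.990 over the 23 libraries. Within the 11 unstimulated libraries it was 0.895 and within the 12 stimulated ones 0.762. Slc7a5 and Slc7a1 had 0.992, 0.889 and 0.804 in the same order. Other pairs were alike only across stimulation: Slc7a5 and Slc6a9 had 0.961 over all libraries, 0.528 within unstimulated and 0.0091 within stimulated ones. Slc7a5 and Slc38a1 had 0.611 over all libraries but 0.872 and 0.898 within the 2 states.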

How the data were processed

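Transcripts were measured by RNA sequencing in 23 libraries of splenic CD4+ T cells, grouped by stimulation, niacin and genotype label. All values come from deposited whole-number counts, one per gene and library. Per the submitters' processing notes, the authors used Trimmomatic 0.38 (a read trimmer), STAR 2.7.0e (an aligner) and featureCounts 1.6.3 (a counter), with the builds GRCm38.p5 and mm10 both named. RNA was amplified with a low-input kit before library preparation, per the labels' protocols. Strand setting and annotation release of the counting were not given in the sources used here. Gene lengths and positions are those of the deposited table, and symbols were found for 53274 of 53379 IDs in GENCODE vM21. Every count column matched a sample (0 were left over). The members and lists were chosen with earlier results of these data known.

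Genes were tested with edgeR 4.0.16 in R 4.3.3 (quasi-likelihood F test, 8 group means in one fit, TMM factors, and the filterByExpr filter at a minimum count of 10), with 16882 genes kept. Benjamini-Hochberg adjustment was made over all of them in a comparison, and the threshold was 0.05. The biological coefficient of variation was 27.4%, with 15 residual degrees of freedom. Levels are CPM with TMM factors, and levels per kb were used between genes. The length was the gene's exon length in the deposited table, which need not be that of the transcript expressed. Totals of 13205565 to 30090018 counts limit the precision, most of all for members near 0. On simulated data for 1 comparison (stimulation, wild-type label, no niacin; 15443 genes), 26% of genes changed 2-fold and 99% of those changed 4-fold were recovered (100 each), with 3 false calls. The simulation changed far fewer genes than stimulation did and gave every gene the same spread, so these rates need not hold for the data. The SE of a log2 fold change was derived from the edgeR fit, as its absolute value divided by the square root of the test's F value. Intervals of 95% use that SE with a t distribution on the 15 residual degrees of freedom. They are approximate, need not match the p-value of the test, and are least reliable for members near 0.

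Named genes are the members, up to 4 genes per direction and list past the threshold with the largest change at 5 CPM or more, and for each member up to 3 of the genes most alike over libraries; a few that this rule picks are not reported here. Results were recomputed with DESeq2 1.42.0 (Wald test), RLE factors, no filter, the replicate number as a block, only the compared groups, leaving out each library in turn, and leaving out libraries that stood apart. Promoter windows are RefSeq's, in GRCm38.p6.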

Additional observations from a re-analysis of the deposited data

How the results depend on the processing

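Of 27 members' differences that passed in a comparison, re-computed in 358 values under the other settings, 350 kept their direction and side of the threshold, 8 fell short of it and 0 reversed. Of 163 that did not pass, 13 of 2709 values passed and 125 changed sign. Slc6a9 (2 comparisons) and Slc7a3 (1) gave no value with only the compared groups, where they did not pass the filter.

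The number of members called changed as follows. Without a filter on low counts, 1 rose with niacin in unstimulated wild-type-labelled cells (Slc7a3, edgeR adjusted p = 0.0223), 1 rose by label in unstimulated cells (Slc1a5, 0.00532), 1 fell by label averaged over 4 conditions (Slc1a4, 0.041) and 0 fell on stimulation in wild-type-labelled cells. On stimulation of knockout-labelled cells without niacin, 1 fell under DESeq2 (Slc38a2, adjusted p = 0.0056) and 1 under RLE factors (Slc38a2, edgeR adjusted p = 0.0238). In that comparison 0 to 1 fell when libraries were left out in turn. The 1 was Slc1a5, without unstimulated knockout-labelled library 1 or 2 (edgeR, adjusted p = 0.0304 and 0.0352). By label in unstimulated cells, leaving libraries out gave 0 to 1 that rose (Slc1a5, log2 0.90, edgeR adjusted p = 0.0436, without knockout-labelled library 2). With libraries 1 and 2 of its stimulated group left out together, 0 fell on stimulation with niacin in the wild-type label (Slc38a2, edgeR adjusted p = 0.0637). With unstimulated knockout-labelled library 3 left out, 1 fell by label in stimulated cells with niacin (Slc1a5, log2 -0.34, edgeR adjusted p = 0.0428). With only the compared groups, Slc1a5 passed as higher in the stimulated group of niacin-treated wild-type-labelled cells against its unstimulated group (edgeR adjusted p = 0.0469). Unless said, the cause was not tested.

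The replicate numbers did not pair the samples. Deviations from the group mean correlated at -0.266 to 0.289 between same-numbered libraries and at -0.279 to 0.255 between differently numbered ones. For 12 of 23 libraries the mean correlation was higher with their own number than with the other numbers pooled. With the replicate number as a block, the carriers that rose on stimulation were again 6, 6, 6 and 7, and no member's call changed.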

Other observations

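The kinase complex mTORC1 senses the leucine and arginine that these carriers bring in. Of 31 listed genes of that sensing, 12 rose and 8 fell under the wild-type label without niacin (23.4% and 21.7% of all genes), against 13 and 7 under the knockout label (25.2% and 27.5%). The numbers that fell were near the background. Sesn2, a leucine sensor induced by ATF4, rose from 18 ± 5.33 to 70.7 ± 5.67 CPM (SD, n = 3; log2 1.97, edgeR adjusted p = 3.55e-06) in wild-type-labelled cells, while Sesn1, its paralogue, fell from 236 ± 24.1 to 92.6 ± 3.99 CPM (SD, n = 3; log2 -1.35, edgeR adjusted p = 1.23e-06). In knockout-labelled cells the 2 genes moved by 2.17 and -1.44 on the log2 scale (edgeR, adjusted p = 1.03e-06 and 4.68e-07). Castor1, an arginine sensor, rose from 30.2 to 91.4 CPM (log2 1.59, edgeR adjusted p = 2.17e-07), and Castor2 fell from 22.1 to 13.3 CPM (log2 -0.73, edgeR adjusted p = 0.0228). Flcn, which acts on the Rag proteins, fell from 76 to 42.3 CPM (edgeR, adjusted p = 0.000119), and Tsc1, a brake on the complex, fell from 47.5 to 29.5 CPM (edgeR, adjusted p = 0.0133).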
